A study of Drosophila melanogaster with 12 samples.

Results

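Oxidative phosphorylation runs on protein complexes of the inner mitochondrial membrane whose subunits come from both the mitochondrial and the nuclear genome. The nuclear part of that set is described here as it stands in the annotation of transcription units that the study made for Drosophila melanogaster. A transcription unit is a stretch of 1 strand that the annotation treats as transcribed together, and it can hold more than 1 gene. Members were the gene symbols that begin with ND-, UQCR, COX or ATPsyn on nuclear chromosomes. There were 74 of them among 17660 nuclear genes, in 74 different units among 15960 nuclear units. By complex, 40 belonged to complex I, 8 to complex III, 11 to complex IV and 15 to complex V. All 74 symbols were found in the RefSeq gene table of the same assembly, where all are protein-coding. A further 6 genes have symbols of this kind in that table (COX6AL2, COX6CL, COX7AL2, COX7B, COX7CL and UQCR-6.4L) but CG numbers in the annotation, and were not counted as members.

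The series sequenced nascent RNA held by RNA polymerase II (mNET-seq) in S2 cells, a cultured male fly line. Total Pol II and its Ser5p form, which carries a phosphate on serine 5 of the repeats in its tail, were profiled after control RNAi (labelled GST), MSL1 RNAi or MOF RNAi, which makes 6 groups of 2 replicates. MSL1 and MOF are proteins of the male-specific lethal complex, which raises transcription of the male X chromosome. The design text gives 4 days of RNAi for MOF, and 2 days for MSL1 and for the control. The annotation carries a value for 0 of the 12 libraries, so no level, depth, replicate error or RNAi effect is given for any gene. Shares are set beside those of all units as a description: an annotation is no sample of units, neighbouring units are not independent, and no difference between sets was tested.

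Complex I (NADH dehydrogenase) takes electrons from NADH, and complex III (cytochrome bc1) passes them from ubiquinol to cytochrome c. Complex IV (cytochrome c oxidase) hands them to oxygen, and complex V (ATP synthase) uses the proton gradient so built to make ATP. In Drosophila many nuclear genes for mitochondrial proteins have a duplicate, marked L for like in the symbol, and testis expression is known for a good number of these.

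Units that hold a member were mostly short. Their median length was 1145 bp, with quartiles at 843.5 and 1970 bp, against a median of 2241 bp over the 13039 units that hold a protein-coding gene. Of the 74 units, 56 (75.7%) were under 2000 bp, against 45.4% of protein-coding units. By complex the medians were 1103 bp in complex I, 1676 bp in complex III, 1100 bp in complex IV and 1226 bp in complex V. The shortest unit of each complex was that of ND-B15 in complex I (557 bp), UQCR-14L in complex III (503 bp), COX8 in complex IV (589 bp) and ATPsynepsilonL in complex V (548 bp). The longest unit of each complex held a paralogue beside a longer gene. These were ATPsynCF6L (142276 bp), ND-51L2 (46561 bp), UQCR-11L (17210 bp) and COX6AL (4403 bp). Of the 74 members 5, all paralogues, started more than 100 bp into their unit, beside 659 of 13868 protein-coding genes. In 66 cases the unit had exactly the span of its member in the gene table.

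**Figure D1:**
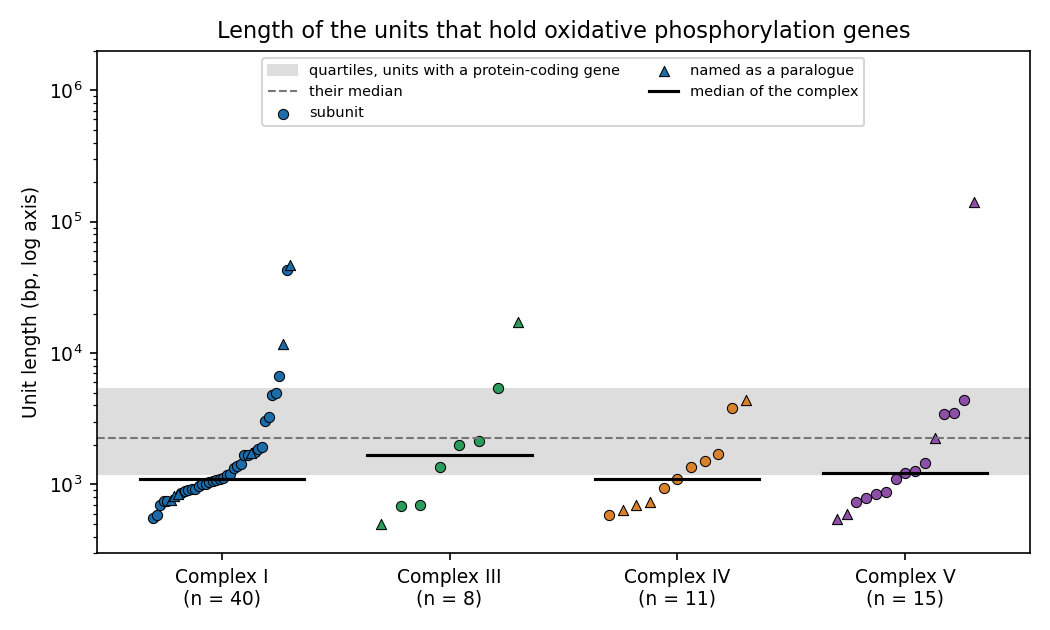
Each point is the unit of 1 member, by complex, with its length in bp on a log axis; triangles are members named as paralogues, black bars are medians of a complex, and the grey band and dashed line are the quartiles and median of units with a protein-coding gene. The medians of all 4 complexes, 1100 to 1676 bp, lie below the dashed line at 2241 bp, and the highest triangles are paralogues merged with a longer gene.

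Members lay on every large arm, with 14 on 2L, 14 on 2R, 16 on 3L, 16 on 3R and 12 on X. The X share, 16.2%, stood beside 15.7% of all 13868 matched protein-coding genes. Chromosome 4 held 2 members, 2.70% of the set, beside 0.570% of protein-coding genes, and Y held 0. By complex, X carried 9 of the 40 complex I genes but 1 of 8 for complex III, 1 of 11 for complex IV and 1 of 15 for complex V. Arm 3R, which held 24.4% of protein-coding genes, carried 7 of the 15 complex V genes, the paralogue ATPsynepsilonL among them. All 12 X members belonged to the 58 that are not named as paralogues, of which they were 20.7%. Members were mostly far from each other. Of 68 pairs of members that follow each other along an arm, 2 lay within 10000 bp of each other. Both were a gene and its own paralogue, though units of other genes lay between COX7A and COX7AL. COX7CL, not counted as a member, lay at 10050348 to 10050874 on 2R, just after COX7C, which ended at 10050066 on the same strand. Other gene sets were not counted in this way. The X members had a median unit length of 1361 bp, beside 2681 bp for X units with a protein-coding gene. A divergent neighbour (a unit that starts within 1000 bp on the other strand and faces away) was found for 8 of the 12, beside 35.2% of X units with a protein-coding gene.

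**Figure D2:**
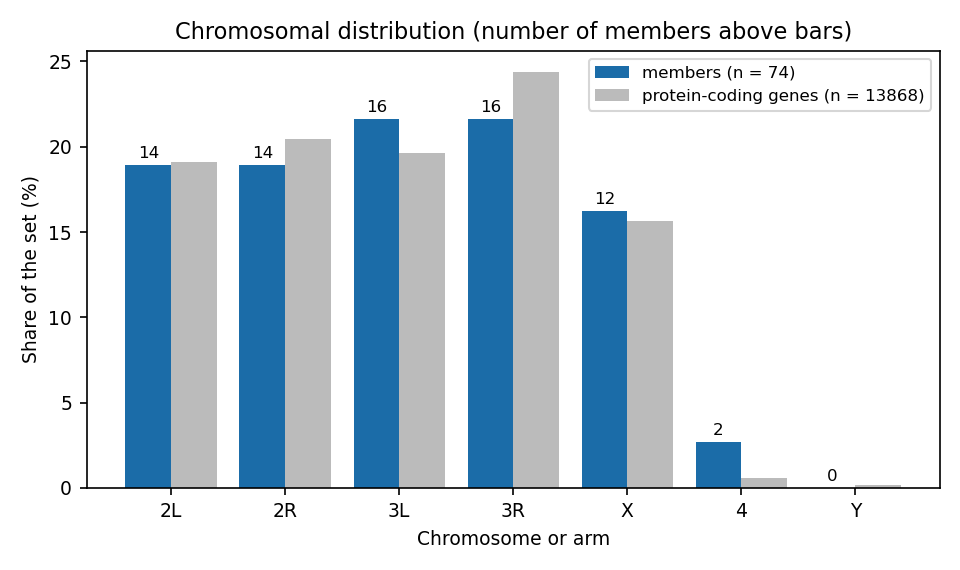
Bars give the share of a set on each chromosome or arm in percent, blue for the 74 members and grey for the protein-coding genes matched to the gene table, with the number of members above. The X bars stand at 16.2% and 15.7%, and chromosome 4 holds 2 members.

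The core of the peripheral arm of complex I, which binds NADH and carries the iron-sulphur clusters, is made of 7 nuclear subunits, and 3 of their genes lay on X. ND-75, the largest iron-sulphur subunit, had a unit of 3037 bp, on X from 8248651 to 8251687 (minus strand). Its start lay 983 bp from that of CG1632 on the other strand. ND-24, another iron-sulphur subunit, spanned 1421 bp from 17632089 to 17633509, and its start lay 42 bp from that of corolla, a protein of the fly synaptonemal complex. ND-20, near the site of ubiquinone reduction, spanned 1336 bp from 15985473 to 15986808, with no divergent start nearer than 5660 bp. The only core subunit gene on chromosome 4, ND-49, had a unit of 3259 bp from 568296 to 571554, the longest of the core. The remaining core genes were short units on 2L (ND-51, the NADH-binding subunit, 1916 bp), 3L (ND-30, 1094 bp) and 3R (ND-23, 1070 bp). Of the 7 core genes, 6 had a divergent neighbour within 1000 bp, all but ND-20, beside 36.4% of protein-coding units.

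Accessory subunits of complex I surround the core and are needed for its assembly and stability. Their 27 genes had a median unit length of 1042 bp, 13 had a divergent neighbour within 1000 bp, and 6 lay on X. ND-18 (917 bp, from 19492421 to 19493337) started 410 bp from pcm, the gene of a 5′ exoribonuclease. ND-B18 (1194 bp, from 15063733 to 15064926) started 304 bp from hiw, a ubiquitin ligase gene of synapses. ND-B16.6 (1386 bp, from 6349016 to 6350401) started 228 bp from kdn, the gene of citrate synthase. These X genes thus each faced away from a gene of another function, in the case of kdn also a mitochondrial one. ND-MNLL had a unit of 746 bp from 7893053 to 7893798 that it shared with CG45089, and its start lay 233 bp from that of p115. ND-B14.5A (907 bp, from 2172526 to 2173432) had no divergent start nearer than 10346 bp. ND-ASHI (1857 bp, from 6677262 to 6679118) overlapped the start of the unit of l(1)G0255 and CG4095 by 695 bp. The RefSeq table names those genes Fum1 and Fum2, and fumarase is an enzyme of the citric acid cycle. Among autosomal accessory genes, ND-AGGG on 3L lay farthest from any other unit, with 48543 bp to the nearest. ND-ACP, the mitochondrial acyl carrier protein, had a unit of 1683 bp on 3L and no divergent start nearer than 5728 bp. ND-MLRQ, whose mammalian counterpart has been reassigned to complex IV, had a unit of 6709 bp on 3L.

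In complex III, the large core proteins UQCR-C1 and UQCR-C2 had units of 2157 bp on 3R and 1988 bp on 3L. UQCR-C1 started 26 bp from CycC, the gene of cyclin C of the Mediator kinase module, while UQCR-C2 had no divergent start nearer than 2577 bp. The X gene of the complex, UQCR-14, had a unit of 701 bp from 16286288 to 16286988 that lay wholly inside CG32576 on the other strand. UQCR-11 had the longest unit that a complex III gene did not share, 5463 bp on 3L.

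In complex IV, COX6B was the X member. Its unit of 3799 bp, from 19740537 to 19744335 on the minus strand, was shared with CG18809 and started 96 bp from the unit of CG33932 and Rpp20. On the autosomes COX5A (941 bp, 3R) had the closest divergent neighbour of all members, described with the other pairs. COX4, COX5B and COX7A had units of 1353, 1509 and 1100 bp, and COX8 the shortest of the complex. COX7C (1714 bp, 2R) overlapped the start of the oys unit by 267 bp.

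Complex V has a catalytic F1 head, a central and a peripheral stalk, and a membrane part with the proton-carrying ring. The catalytic subunit gene ATPsynbeta lay on chromosome 4, in a unit of 3434 bp from 1031484 to 1034917 whose start overlapped that of CG11076 by 274 bp. The central stalk genes were ATPsyngamma, 1460 bp on 3R, and the X gene ATPsyndelta. The ATPsyndelta unit was 4424 bp long, from 10212970 to 10217393, the longest of the X members, and held CG2962 of the other strand whole. The 4 peripheral stalk genes had units of 845 bp (ATPsynCF6) to 1272 bp (ATPsynD). ATPsynC, the gene of the ring subunit, had a unit of 3486 bp on 3R that included RNaseP:RNA, the RNA of ribonuclease P, and mir-4949. The membrane subunits ATPsynE, ATPsynF and ATPsynG had units of 789, 734 and 878 bp.

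Divergent neighbours, meaning units on the other strand that face away and start at most 1000 bp off, were common. The units of 37 of 74 members (50%) had one. Over protein-coding units the share was 36.4%, over all nuclear units 33.1%. Starts were at most 200 bp apart for 14 members (18.9%), against 10.7% of protein-coding units. They were at most 50 bp apart for 6 of 74 members, against 306 of 13039 protein-coding units (2.35%). Among those with a divergent neighbour, the median distance was 229 bp, and 301.5 bp over protein-coding units. By complex the counts were 20 of 40 in complex I, 2 of 8 in complex III, 6 of 11 in complex IV and 9 of 15 in complex V.

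The closest starts were 20 bp apart, those of COX5A and glo, an RNA-binding protein gene. ND-19 and CG30161 started 21 bp apart and UQCR-6.4 and CG42239 45 bp apart, both pairs of short units. ND-PDSW, an accessory subunit gene of complex I on 2L, has the gene of the male-specific lethal complex protein MSL2 as its neighbour, at 45 bp. ATPsyngamma and yata started 56 bp apart, and COX7A and Arl2, a small GTPase gene, 57 bp apart. In the ATPsynD pair, at 95 bp, the other unit was mRpL55, a mitochondrial ribosomal protein gene. Besides UQCR-C1, ND-24 and COX6B, described above, the remaining pairs within 200 bp were ND-B17.2 with Arpc5 (120 bp), ATPsynF with CG3548 (126 bp), COX7AL with CG9601 (153 bp) and ND-B8 with CG15440 (173 bp). The next in order was ND-49, whose start lay 201 bp from that of Ephrin, and the ATPsynCF6 start lay 214 bp from that of Sec13. ND-42, at 229 bp, had Cchl, the gene of cytochrome c haem lyase. Partners with a well-known mitochondrial role, singled out after the values were seen, were kdn, mRpL55 and Cchl, and no partner was itself a member.

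Wider pairs brought together genes of varied function. ATPsynE started 258 bp from Afti, and ND-SGDH 284 bp from RhoGAP68F. COX5B lay 298 bp from IFT52, a gene of the transport system of cilia, and ND-23 lay 302 bp from spn-E, a germline RNA helicase gene. ATPsynG lay 373 bp from SCAR, a regulator of actin branching, and COX8 lay 415 bp from VhaM9.7-b, a subunit gene of the vacuolar proton pump. The partner of ND-13A, at 589 bp, was the unit of Msp300, a nuclear envelope linker, and this partner unit was 106126 bp long. The widest counted pair was ND-75 with CG1632 at 983 bp, and next beyond 1000 bp were ATPsynC (1072 bp), ND-MLRQ (1128 bp) and ND-B17 (1185 bp). A further 5 members had no such neighbour but a start that overlapped the start of a unit on the other strand: ND-39, ND-ASHI, ND-MWFE, COX7C and ATPsynbeta. Overlapping starts were thus found for 6.76% of members. Among protein-coding units, with or without a divergent neighbour, the share was 3.93%.

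**Figure D3:**
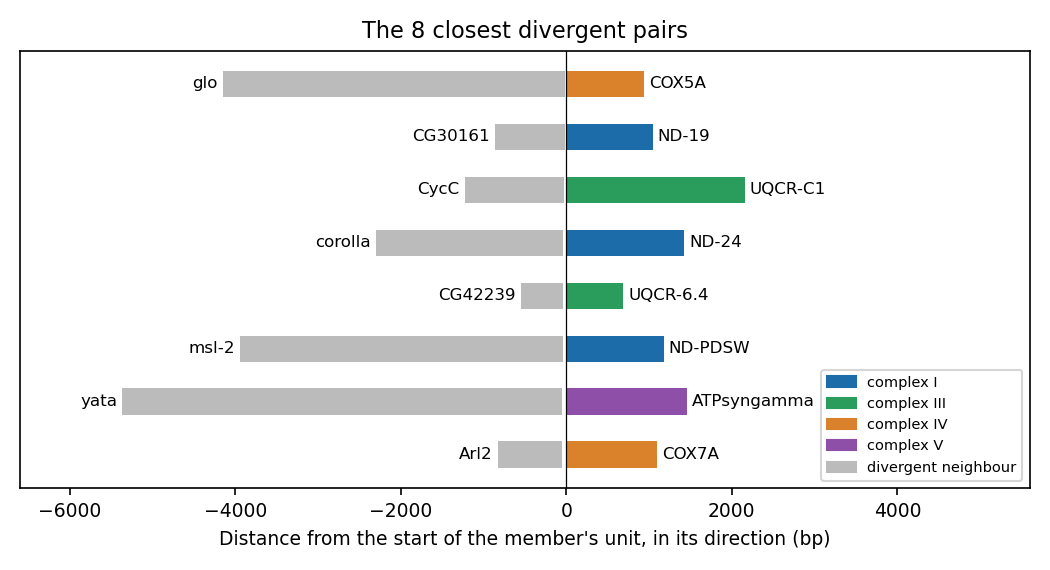
Coloured bars are the units of the 8 members with the closest divergent neighbours and grey bars are the neighbours, drawn to scale as distance in bp from the start of the member's unit. The gaps between starts run from 20 bp (COX5A and glo) to 57 bp (COX7A and Arl2).

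Overlap with the other strand was found for 33 of the 74 member units (44.6%), against 39.7% of protein-coding units. In 19 of these (25.7% of members, 19.7% of protein-coding units) only the ends of both units overlapped. That form was found in 14 of 40 complex I units, 2 of 8 in complex III, 1 of 11 in complex IV and 2 of 15 in complex V. Several such overlaps were of a few bp, such as 4 bp for ATPsynF with CG13587 and 9 bp for ND-B15 with Trs31. The largest overlap of starts was that of ND-39, 2840 bp with ZnT77C, a zinc transporter gene.

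Of the 74 members, 12 (16.2%) shared their unit with another gene. Counted by gene in the same way, 13.8% of 13868 protein-coding genes and 16.1% of all nuclear genes did, so the members' share lay near the background. In 3 of the 12 the other genes were RNA genes alone: mir-4911 in ND-23, mir-4942 at the start of ND-MLRQ, and the RNA genes named above in ATPsynC. ND-15, an accessory subunit gene of complex I, had by far the longest span of any member, 41305 bp on 2L with 10 transcripts in the gene table. Its unit of 42941 bp held Gs1, the gene of glutamine synthetase, and 5 other genes, and the last of them, CG3436, overlapped ND-15 by 2 bp. The end of ND-MWFE overlapped the start of Nrk, a receptor tyrosine kinase gene, by 128 bp, and this joined them in a unit of 4819 bp. ND-MNLL and CG45089 had the same span in the gene table, and CG18809 lay inside COX6B. The other 5 shared units were those of paralogues.

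Of the members, 16 are named as paralogues. For 14 the parent is another member, and for COX6AL and ATPsynepsilonL it is levy and sun, which the RefSeq synonyms give as COX6A and ATPsynepsilon. The parents number 15, since ND-51, the NADH-binding subunit, has both ND-51L1 and ND-51L2. Paralogue and parent lay on different arms in 12 of 16 pairs. Each large arm held between 15.7% (X) and 24.4% (3R) of protein-coding genes, so most pairs of unrelated genes would also lie on different arms. Of the parents, 5 lay on X (ND-20, ND-24, ND-B14.5A, UQCR-14 and sun) and 2 on chromosome 4 (ND-49 and ATPsynbeta). Of the 16 paralogues 0 lay on either, beside 15.7% (X) and 0.570% (chromosome 4) of protein-coding genes, a difference that was not tested. The paralogues of X genes were on 3R (ND-20L, UQCR-14L and ATPsynepsilonL) or 3L (ND-24L and ND-B14.5AL). Those of the chromosome 4 genes were on 3R (ND-49L) and 3L (ATPsynbetaL).

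On the same arm were COX5B with COX5BL, COX7A with COX7AL, ATPsynG with ATPsynGL, and levy with COX6AL. COX5BL followed COX5B on the same strand of 2L after 122 bp, and COX7AL lay 2625 bp from COX7A on 3R on the other strand. The paralogue spanned less than its parent in 15 of 16 pairs, with a median ratio of 0.632. The lowest ratio was 0.0811, for UQCR-11L with 443 bp against 5463 bp. ND-51L1, with 2143 bp against 1916 bp, was the single longer one. Outside the members, 3 genes named in this way spanned more than the parent. They were COX7AL2 (5388 bp, COX7A 1100 bp), COX6AL2 (5891 bp, levy 744 bp) and SdhBL (2136 bp, SdhB 1547 bp). COX7CL, UQCR-6.4L, SdhAL and Cyt-c1L spanned less than theirs. COX6CL (554 bp) was not compared with a parent. By the transcripts of the gene table, 11 of the 16 member paralogues had 1 transcript, but 1 of 15 parents, which was UQCR-14. The paralogue had fewer transcripts than its parent in 13 pairs, as many in 2, and more for ATPsynepsilonL with 3 against 2.

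**Figure D4:**
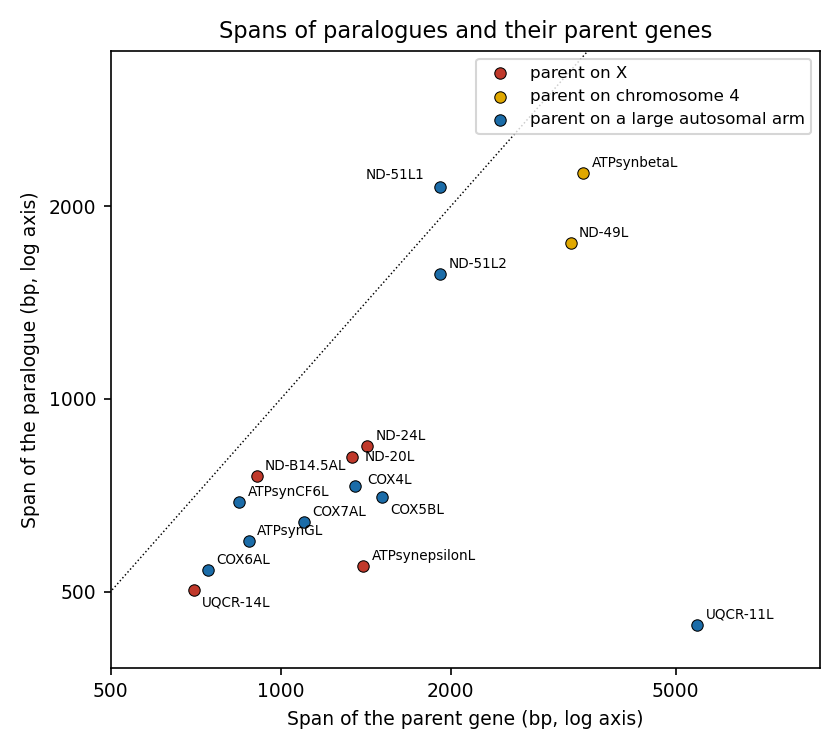
Each point is 1 of 16 paralogue and parent pairs, with the span in the RefSeq gene table in bp on log axes; the dotted line marks equal spans and the colour gives the parent's chromosome. All points but ND-51L1 lie below the line, and UQCR-11L lies farthest from it.

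Many of the paralogues lay inside another gene or unit. Of 16, 5 were held whole by a longer gene of the same strand and merged with it into 1 unit: ND-51L1 by Smurf, ND-51L2 by Trpm, UQCR-11L by Acsl, COX6AL by Cyp4aa1 and ATPsynCF6L by Con. Another 3 lay whole inside a unit of the other strand: ND-49L in that of Fur1, ND-B14.5AL in CG14459 and COX5BL in CG9596. That made 8 of 16 (50%), against 1 of the other 58 members, UQCR-14, and 11.4% of 13868 protein-coding genes. The 5 genes that hold a paralogue on the same strand spanned 4403 bp (Cyp4aa1) to 142276 bp (Con). Their paralogues started 1164 bp (COX6AL) to 66900 bp (ATPsynCF6L) into the unit. Reads of the paralogue and of its host fall in the same unit in those 5 cases.

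Measured from their own starts, 3 of 16 paralogues had a divergent neighbour within 1000 bp, COX7AL, ATPsynbetaL (341 bp) and ATPsynepsilonL (373 bp). The unit of ND-51L1 also had one, at 282 bp, but it faces the start of Smurf, which lies 2476 bp from that of ND-51L1. Of the other 58 members 33 had such a neighbour (56.9%), and of the 15 parents 8 did. In units with 1 gene the annotation lists 1 transcript for 8 of 11 paralogues and for 9 of 51 other members (17.6%), and for 51.2% of protein-coding units with 1 gene.

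**Figure D5:**
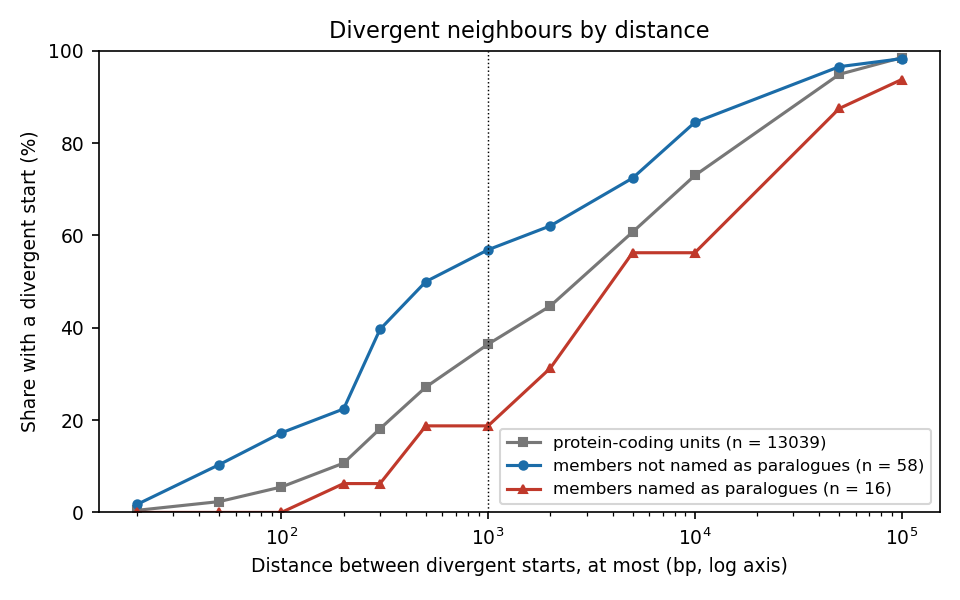
Lines give the share of a set whose start has a divergent start within the distance on the log axis, in bp; members are measured from their own starts and protein-coding units from the start of the unit. At 1000 bp (dotted) the shares are 56.9% of 58 members not named as paralogues, 36.4% of protein-coding units and 3 of 16 paralogues.

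The symbols leave out other genes of the pathway, of which 16 were listed: those of complex II (succinate dehydrogenase), further subunits of complexes III to V under other symbols, and cytochrome c. All 16 had a unit, with a median of 1640 bp, 8 had a divergent neighbour within 1000 bp, and 2 lay on X (sun and SdhBL). The shortest was ox, a small complex III subunit gene, with 397 bp, and it started 17 bp from Dgkepsilon. Its end overlapped that of mRpL18 by 41 bp. levy started 88 bp from wmd. blw, the gene of the alpha subunit of the F1 head, had a unit of 3082 bp on 2R, beside 3434 bp for its partner ATPsynbeta. SdhAL resembled the nested paralogues: it lay inside a longer gene and shared a unit of 88228 bp on 3L. Its parent SdhA stood alone in 4109 bp on 2R. SdhBL and Cyt-c1L did not lie inside another gene. Of the genes with newer symbols, UQCR-6.4L lay inside the unit of Mipp1 on the other strand. COX6AL2, COX6CL, COX7AL2 and COX7CL lay inside no other gene or unit. SdhBL on X had its parent SdhB on 2R, the opposite placement to the paralogues above. The units of SdhC, SdhD, Cyt-c1, Cyt-c1L, RFeSP and cype ran from 743 bp (cype) to 2588 bp (Cyt-c1). The germline and somatic cytochrome c genes, Cyt-c-d and Cyt-c-p, followed each other on 2L.

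Ribosomal protein genes, another set whose products form large complexes, give a scale for these shares. Of 73 mitochondrial ribosomal protein units, 56 (76.7%) had a divergent neighbour within 1000 bp, as did 57 of 92 cytoplasmic ribosomal protein units (62.0%). The share was 50% of all members and 56.9% of the 58 not named as paralogues. Median lengths were 910 bp and 1326 bp, and X held 11 and 14 of these units. The differences were not tested.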

How the data were processed

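The deposited file analysed is an annotation of transcription units on dm6 that belongs to no library. Its measurements are positions: start and end in bp, 1-based, in no normalized unit (other than counts), written by the authors with rtracklayer 1.48.0 per the file header. The rule for merging genes was not given in the sources used here. Per the submitters' processing notes, cutadapt 2.8, STAR 2.7.4a and SAMtools 1.20 were used on the libraries. Depth is unknown.

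Symbols were matched to the RefSeq gene table of Release 6 by symbol, then by locus tag or synonym (17595 of 17660 nuclear genes). The 31 mitochondrial units were left out. Divergent distance, overlap (at least 1 bp) and gap were computed from unit ends and tested on simulated data, with 0 mismatches. Parents of paralogues are the symbol without L. Python 3.11.15, NumPy 2.4.6, pandas 2.3.3 and Matplotlib 3.10.9 were used.

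The members and lists were chosen with earlier results of these data known. Named by rule were X members, members that share a unit, divergent starts within 200 bp, paralogues, the extreme lengths of each complex and the 16 other pathway genes. Other members, such as the remaining core subunits, were named after their values were seen. No test was made.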

Additional observations from a re-analysis of the deposited data

How the results depend on the processing

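No paired analysis was possible because the analysed file holds no library values, which also leaves no replicate to omit. Of 20 alternatives, 18 kept the value within 1.5 times of the one reported. Counting each unit once could not change the 37, since every member has a unit of its own. Counts with paralogues left out or newer symbols added are out of 60 or 80 genes in place of 74. With starts at most 200 bp apart, 14 members had a divergent neighbour in place of 37, and with overlaps of at least 100 bp, 19 units overlapped the other strand in place of 33; both follow from the narrower definition. With the 14 paralogues whose parent is another member left out, X held 20% of the other 60, which still include COX6AL and ATPsynepsilonL. Starts of genes in place of units, and the 6 genes with newer symbols, were added after seeing the data and gave 36 and 38 divergent members. A further 3 alternatives, on promoter motifs and protein identity, were not run, since no promoter or protein sequences were used here. Gene spans in the RefSeq table are nearly all those of the units, so they are no independent check. Unit ends are annotated, not measured in these cells.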
